A study of Mus musculus with 8 samples.

Results

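The 36 genes described here encode the glycolytic pathway and the response to low oxygen in cultured mouse liver endothelial cells. They were chosen by symbol from a deposited table of 52636 genes. The rule used no measured value, but earlier results of these data were known when the genes were chosen. They comprise 2 glucose transporters, 16 glycolytic enzymes, 2 regulators of phosphofructokinase, 2 lactate transporters, 2 pyruvate dehydrogenase kinases, 2 HIF alpha subunits, 2 HIF prolyl hydroxylases and 8 other target genes of HIF. The 36 symbols matched 37 rows of the table, because Aldoa has 2 Ensembl entries. All 36 genes were among the 15698 that passed the filter on low counts. The second Aldoa row held 23 counts over the 8 libraries and was not tested.

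Endothelial cells, which line blood vessels, came from mouse liver and were cultured and sorted as live cells negative for CD45 and positive for CD31 and VE-cadherin. RNA was sequenced from 8 libraries, 2 in each of 4 groups: WT cells, WT cells given the inflammatory cytokines IL1B and TNFA, dKO cells, and dKO cells given the same cytokines. The labels do not spell out dKO, and the design text names Erg and Fli1, ETS-family transcription factors of endothelium, as the genes to be deleted. 4-OHT, the active form of tamoxifen, was given for 48 hours, the cells were kept for 7 days after its first addition, and cytokines were present for the last 16 hours where used. The labels give 4-OHT for all 8 libraries, in the medium by one account and in the mice by another, which was not settled. They name neither the Cre driver nor an oxygen level, and are silent on whether libraries of 1 group had different animals or cultures as their source. The p-values below therefore measure only the spread between these libraries. The groups without cytokines are called untreated.

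Glycolysis turns glucose into pyruvate, and in endothelial cells it supplies most of the ATP even when oxygen is present. Glucose enters through transporters of the Slc2a family, is committed by hexokinase and phosphofructokinase, and leaves as lactate through transporters of the Slc16a family. When oxygen falls, the prolyl hydroxylases (Egln genes) stop marking the HIF alpha proteins for destruction by the Vhl complex, and stable HIF switches on a shared set of genes that includes many glycolytic enzymes. HIF alpha proteins are controlled mainly at the protein level, which RNA counts do not show.

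Levels are counts scaled to library size (CPM). The targeted genes were examined first. Erg stood at 196 and 186 CPM in the untreated WT libraries and 208 and 201 CPM with cytokines. In dKO cells it stood at 40.1 and 91.3 CPM untreated and 34.7 and 90.2 CPM with cytokines. Fli1 stood at 161 and 177 CPM in untreated WT, 91.5 and 96.4 CPM in WT with cytokines, 21.9 and 62.5 CPM in untreated dKO and 12.4 and 35.2 CPM in dKO with cytokines. For both genes each dKO library stood under each WT library of the same treatment, but neither difference passed the test (adjusted p between 0.0538 and 0.0864), and the dKO libraries numbered 2 kept more of both transcripts than those numbered 1. Within a group, the dKO libraries also differed from each other more than the WT libraries did over all genes. Library totals ran from 23009062 to 26944030 counts. The summed level of 8 endothelial markers was 9417 and 9183 CPM in untreated WT and 1925 and 3469 CPM in untreated dKO, with all 8 present in both, 5 of the 8 lower in untreated dKO and 4 lower with cytokines. The sum over 10 markers of stellate cells, pericytes and fibroblasts was 9209 and 9334 CPM in untreated WT and 17593 and 13225 CPM in untreated dKO, and 5 of the 9 that could be tested were higher in dKO with and without cytokines. Without cytokines the median log2 fold change over these 9 was 3.63, from -2.10 to 8.07, with 8 above 0 and 1 below. The sum mostly reflects its most abundant markers and does not show these changes. Leukocyte markers summed to between 4.20 and 9.81 CPM over the 8 libraries, with 2 of 7 at 0 in all. Hepatocyte markers summed to at most 0.517 CPM in WT and to between 81.8 and 225.8 CPM in dKO, nearly all from Ahsg, with 3 of 6 markers at 0 everywhere. Markers of cholangiocytes and mesothelium summed to between 2.47 and 3.06 CPM in WT and to at most 262 CPM in dKO. In bulk RNA, fewer cells of a type and less RNA per cell cannot be told apart.

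HIF binds a short core, ACGTG or GCGTG, in the promoters of its targets. RefSeq promoter windows of 300 bases (250 before and 50 after a start site, build GRCm38.p6) matched 33 of the 36 genes; Epas1, Ndrg1 and Slc2a3 had none. On either strand, 30 of the 33 genes (90.9%) held the core in at least 1 window, against 46.7% of the 27025 genes in the promoter table. The core holds the dinucleotide CG, and the windows of these genes held a median of 22 such dinucleotides against 7 over all windows; its part in the difference was not tested. The core was found for 13 of the 16 glycolytic enzymes and for all 7 of the other HIF targets that matched. A core of the ETS family, CCGGAAG on either strand, was found for 2 of the 33 genes (6.06%), Aldoc and Ero1l, against 9.93% of all genes. The 250 bases before the start site are shown for 6 genes, chosen after their values were seen because they carry differences reported below, with the HIF core in capitals on either strand. CACGTG reads as ACGTG on both strands and counts as 2 matches.
Egln3: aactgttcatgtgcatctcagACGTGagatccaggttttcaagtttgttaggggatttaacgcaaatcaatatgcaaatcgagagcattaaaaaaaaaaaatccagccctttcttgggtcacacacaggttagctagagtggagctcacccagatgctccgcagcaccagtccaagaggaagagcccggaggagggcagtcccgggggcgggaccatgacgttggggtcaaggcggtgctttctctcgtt
Ero1l: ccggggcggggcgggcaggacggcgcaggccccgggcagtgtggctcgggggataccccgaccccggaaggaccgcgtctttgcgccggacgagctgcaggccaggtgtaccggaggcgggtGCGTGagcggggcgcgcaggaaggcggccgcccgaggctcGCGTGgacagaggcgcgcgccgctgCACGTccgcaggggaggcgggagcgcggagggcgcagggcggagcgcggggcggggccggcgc
Ddit4: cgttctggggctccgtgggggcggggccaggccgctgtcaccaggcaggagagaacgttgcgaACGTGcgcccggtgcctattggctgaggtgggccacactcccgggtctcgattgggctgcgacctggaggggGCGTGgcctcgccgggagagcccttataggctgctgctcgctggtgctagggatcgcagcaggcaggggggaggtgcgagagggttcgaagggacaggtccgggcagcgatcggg
P4ha2: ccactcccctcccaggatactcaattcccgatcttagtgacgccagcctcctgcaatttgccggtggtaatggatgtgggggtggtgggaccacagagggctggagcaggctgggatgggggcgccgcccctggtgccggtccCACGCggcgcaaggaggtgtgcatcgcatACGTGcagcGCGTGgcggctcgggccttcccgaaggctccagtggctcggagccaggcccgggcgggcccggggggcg
Ldha: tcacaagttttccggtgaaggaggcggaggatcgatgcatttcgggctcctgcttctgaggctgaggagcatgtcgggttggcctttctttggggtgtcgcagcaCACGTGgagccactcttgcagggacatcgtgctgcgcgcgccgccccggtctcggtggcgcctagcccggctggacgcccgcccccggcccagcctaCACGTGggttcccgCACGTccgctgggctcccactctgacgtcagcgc
Slc16a1: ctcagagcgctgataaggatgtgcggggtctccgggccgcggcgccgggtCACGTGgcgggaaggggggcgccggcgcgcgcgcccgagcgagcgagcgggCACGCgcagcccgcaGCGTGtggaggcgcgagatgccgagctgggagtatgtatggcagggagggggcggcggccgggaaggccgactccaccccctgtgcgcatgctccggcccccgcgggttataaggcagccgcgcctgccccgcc
Egln3 is at chr12:54203875-54204124 (minus strand), Ero1l at chr14:45318573-45318822 (minus strand), Ddit4 at chr10:59951771-59952020 (minus strand), P4ha2 at chr11:54100674-54100923 (plus strand), Ldha at chr7:46845554-46845803 (plus strand) and Slc16a1 at chr3:104638414-104638663 (plus strand). These stretches hold 1 match for Egln3, 3 for Ero1l, 2 for Ddit4, 3 for P4ha2, 5 for Ldha and 4 for Slc16a1. A match describes the letters only and does not show that a factor binds there.

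Levels of different genes were compared per kilobase of exon (CPM per kilobase). In untreated WT cells the 5 most abundant of the 36 were the glycolytic enzymes Aldoa at 502, Ldha at 365, Tpi1 at 331, Pkm at 312 and Gapdh at 274 CPM per kilobase. The least abundant were Slc2a3 at 0.793, Pfkfb4 at 0.858 and Aldoc at 1.26 CPM per kilobase. The HIF targets Egln3 and Ero1l stood higher in this order in dKO than in WT cells. Egln3 ranked 10 in untreated WT (86.6 CPM per kilobase), 7 in WT with cytokines (180.3), 4 in untreated dKO (352) and 2 in dKO with cytokines (603). Ero1l ranked 15, 11, 7 and 4 in the same groups. In dKO cells with cytokines, Egln3 and Ero1l (572 CPM per kilobase) stood beside Ldha (904) and Aldoa (586), whereas Gapdh stood at 362.

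**Figure D1:**
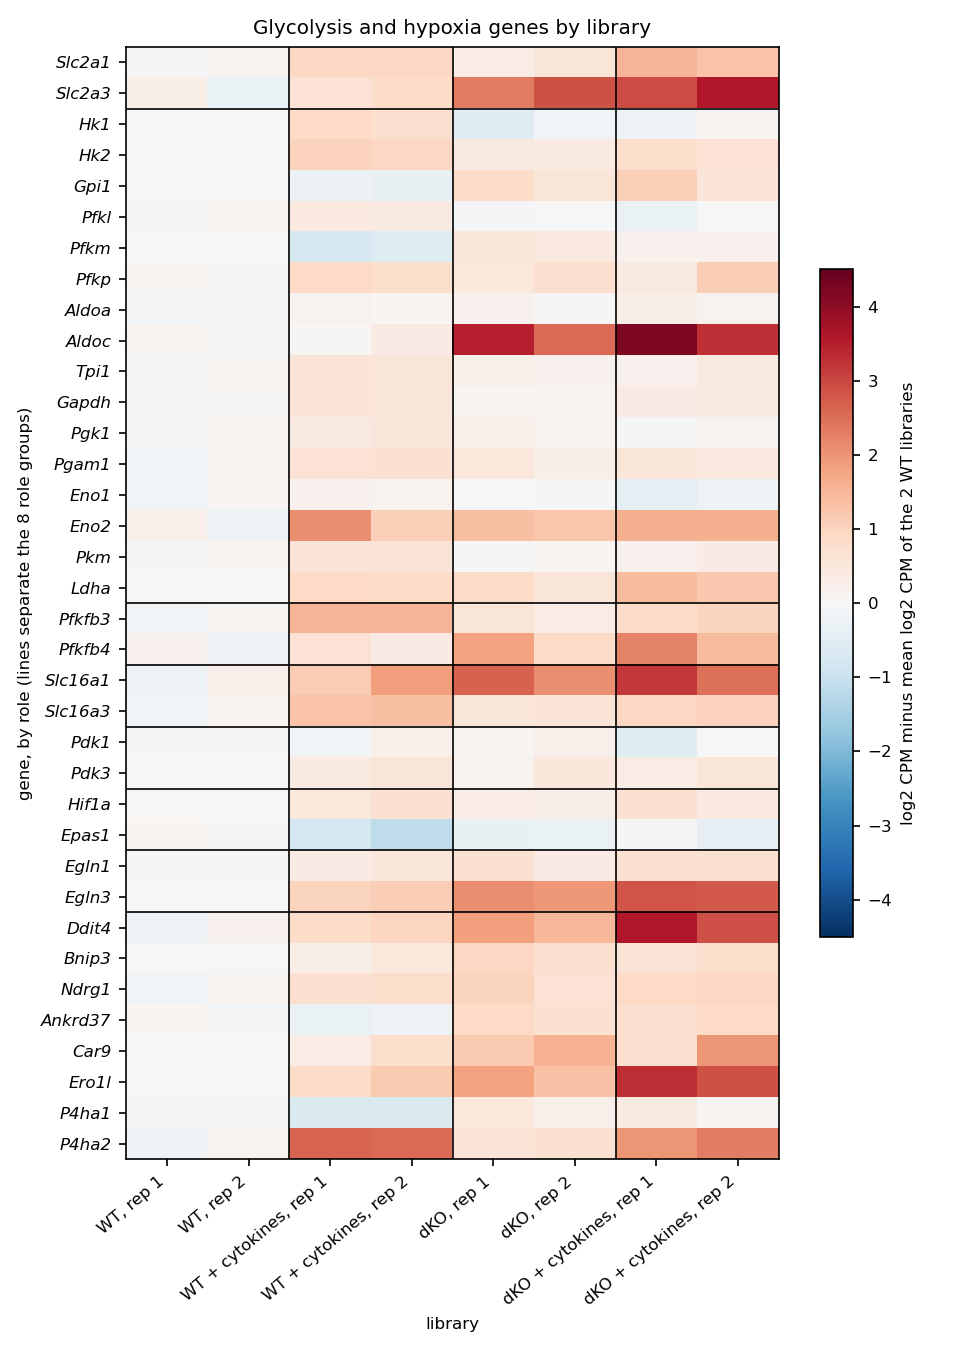
Levels of the 36 genes in each of the 8 libraries (columns), as log2 CPM minus the mean log2 CPM of the 2 untreated WT libraries, with genes in rows grouped by role. The strongest red is in the dKO libraries for Slc2a3, Aldoc, Slc16a1, Egln3, Ddit4 and Ero1l, while P4ha2 is strongest in WT cells with cytokines.

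The first comparison asked how untreated dKO cells differed from untreated WT cells. Of the 36, 19 were higher and 0 lower in dKO than in WT cells (edgeR quasi-likelihood test, Benjamini-Hochberg adjusted p below 0.05), against a background of 13.4% of all tested genes higher, 9.66% lower and 23% changed in either direction. The median log2 fold change was 0.51 over the 36 genes and 0.02 over all tested genes. No gene was lower at an unadjusted p below 0.05 either, nor with DESeq2. DESeq2 called 21 higher, against 27% of the genes for which it gave an adjusted p, in either direction. The groups did not overlap for 33 of the 36 genes, against 70% of all tested genes.

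Of the glucose transporters, Slc2a3 (GLUT3), a high-affinity carrier, was scarce in WT cells and rose in dKO cells. It read 6.87 and 4.62 CPM in the untreated WT libraries and 28.6 and 41.3 CPM in the dKO libraries, 6.1-fold higher (log2 fold change 2.61 ± 0.32, SE, n = 2 per group, adjusted p = 0.00543). The more abundant Slc2a1 (GLUT1) read 269 and 307 CPM in WT and 363 and 421 CPM in dKO, which did not overlap but did not pass the test (adjusted p = 0.0639).

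Of the 16 glycolytic enzymes, 6 were higher and none lower. The largest change was in Aldoc, an aldolase best known from brain, at 4.36 and 3.84 CPM in WT against 46.7 and 24.2 CPM in dKO (8.64-fold, log2 fold change 3.11 ± 0.44, adjusted p = 0.00795). The dKO library 1 stood well above library 2, and both lay above every WT library. Ldha, which makes lactate from pyruvate, read 1179.6 and 1234 CPM in WT against 2167 and 1759.9 CPM in dKO (1.63-fold, adjusted p = 0.0218). Eno2, the minor enolase here, rose from 24 and 17.3 to 52.1 and 48.7 CPM (2.44-fold, adjusted p = 0.0393). Gpi1, which converts glucose phosphate to fructose phosphate, rose from 529.7 and 554 to 966 and 791 CPM (1.62-fold, adjusted p = 0.0375). For Ldha, Eno2 and Gpi1 both dKO libraries lay above both WT libraries. Smaller rises were seen in Pfkm, the muscle-type phosphofructokinase (1.38-fold, adjusted p = 0.0138), and Hk2, the inducible hexokinase (1.32-fold, adjusted p = 0.0253). Gapdh, Pkm and Eno1, abundant enzymes of the lower part of the pathway, did not pass the test. Gapdh read 1090.5 and 1172 CPM in WT and 1225 and 1228 CPM in dKO, Pkm read 1462 and 1655 CPM in WT and 1490.1 and 1655 CPM in dKO, and Eno1 703 and 832 CPM in WT and 754 and 729 CPM in dKO. The other enzymes that did not pass were Hk1, Pfkl, Pfkp, Aldoa, Tpi1, Pgk1 and Pgam1, with log2 fold changes from -0.31 (Hk1) to 0.61 (Pfkp).

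Both regulators of phosphofructokinase and both lactate transporters were higher in untreated dKO cells. Slc16a1 (MCT1) carries lactate in and out of cells, and read 19.6 and 27.5 CPM in WT against 147 and 97.8 CPM in dKO (5.2-fold, log2 fold change 2.38 ± 0.39, adjusted p = 0.0123). Slc16a3 (MCT4), the exporter of highly glycolytic cells, rose from 178 and 209 to 284 and 289 CPM (1.48-fold, adjusted p = 0.017). Pfkfb3, which makes the activator of phosphofructokinase and drives glycolysis in endothelium, rose from 105 and 122 to 167 and 143 CPM (1.37-fold, adjusted p = 0.0473). Pfkfb4, a scarce relative, rose from 4.76 and 3.61 to 14.5 and 7.61 CPM (2.64-fold, adjusted p = 0.0498). The calls for Pfkfb3 and Pfkfb4 lay just under the threshold. The kinases Pdk1 and Pdk3 hold pyruvate back from oxidation in the mitochondria. Pdk1 read 213 and 230.4 CPM in WT and 242 and 260.2 CPM in dKO, and Pdk3 19.1 and 18.4 CPM in WT and 20.8 and 26.5 CPM in dKO, and neither passed (adjusted p = 0.549 and 0.15).

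Among the oxygen sensors, Egln3 had the smallest adjusted p of the 36 genes. It read 229.6 and 231 CPM in the WT libraries and 989 and 883 CPM in the dKO libraries, 4.06-fold higher (log2 fold change 2.02 ± 0.12, adjusted p = 0.000773). Egln1, the main oxygen sensor in most cells, rose from 144 and 134 to 224 and 181 CPM (1.46-fold, adjusted p = 0.0273). Both prolyl hydroxylases are themselves HIF targets. The transcripts of the HIF alpha subunits did not pass the test: Hif1a read 535 and 551 CPM in WT and 683 and 658 CPM in dKO (adjusted p = 0.132), and Epas1, which encodes HIF-2 alpha, 498 and 437 CPM in WT and 370.0 and 378 CPM in dKO (adjusted p = 0.225).

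Of the 8 other HIF targets, 6 were higher and none lower. Ddit4, an inhibitor of mTORC1 signalling, read 51.7 and 66.1 CPM in WT against 213 and 164 CPM in dKO (3.2-fold, log2 fold change 1.68 ± 0.26, adjusted p = 0.00976). Ero1l, an oxidase that forms disulfide bonds in the endoplasmic reticulum, read 352 and 351 CPM in WT against 1239.5 and 871 CPM in dKO (3.01-fold, log2 fold change 1.59 ± 0.24, adjusted p = 0.00835). Ndrg1, a stress-response gene, rose from 177 and 213 to 391 and 306 CPM, and Bnip3, a mitophagy receptor, from 150.4 and 146 to 284 and 241 CPM (adjusted p = 0.0138 and 0.00956). P4ha2, a subunit of collagen prolyl hydroxylase, rose from 82.2 and 101 to 140.2 and 145 CPM (adjusted p = 0.0258). Ankrd37 rose from 9.82 and 8.6 to 17.2 and 14.8 CPM (adjusted p = 0.0163), but 26.4% of its exon bases are shared with Lrp2bp and Ufsp2, so its counts are uncertain. Car9 (a membrane carbonic anhydrase) read 4.91 and 4.82 CPM in WT and 11.1 and 14.3 CPM in dKO, which missed the threshold narrowly (adjusted p = 0.0504). P4ha1, the other common catalytic subunit of collagen prolyl hydroxylase, read 502 and 540.1 CPM in WT and 725 and 617 CPM in dKO (adjusted p = 0.0913).

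These counts moved with the libraries used. The count of 19 became 2 without untreated WT library 1 or 2 (Slc2a3 and Egln3 in both), where 3.21% and 4.17% of all tested genes passed. It was 6 without untreated dKO library 1 (7.21% of all tested genes), and 12 without WT library 1 or 2 given cytokines (15% and 14.8%). Without both dKO libraries numbered 2, which kept more Erg and Fli1, 22 genes were higher and 1, Hk1, was lower, against 34.5% of all tested genes in either direction. Markers moved along with these genes: 5 of 8 endothelial markers were lower, 5 of 9 stellate and fibroblast markers were higher, and 8 of 10 cell cycle genes were lower (summed level of the last 187 and 194 CPM in WT and 78.2 and 101 CPM in dKO). The part of other cell types and of proliferation in these differences was not tested.

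**Figure D2:**
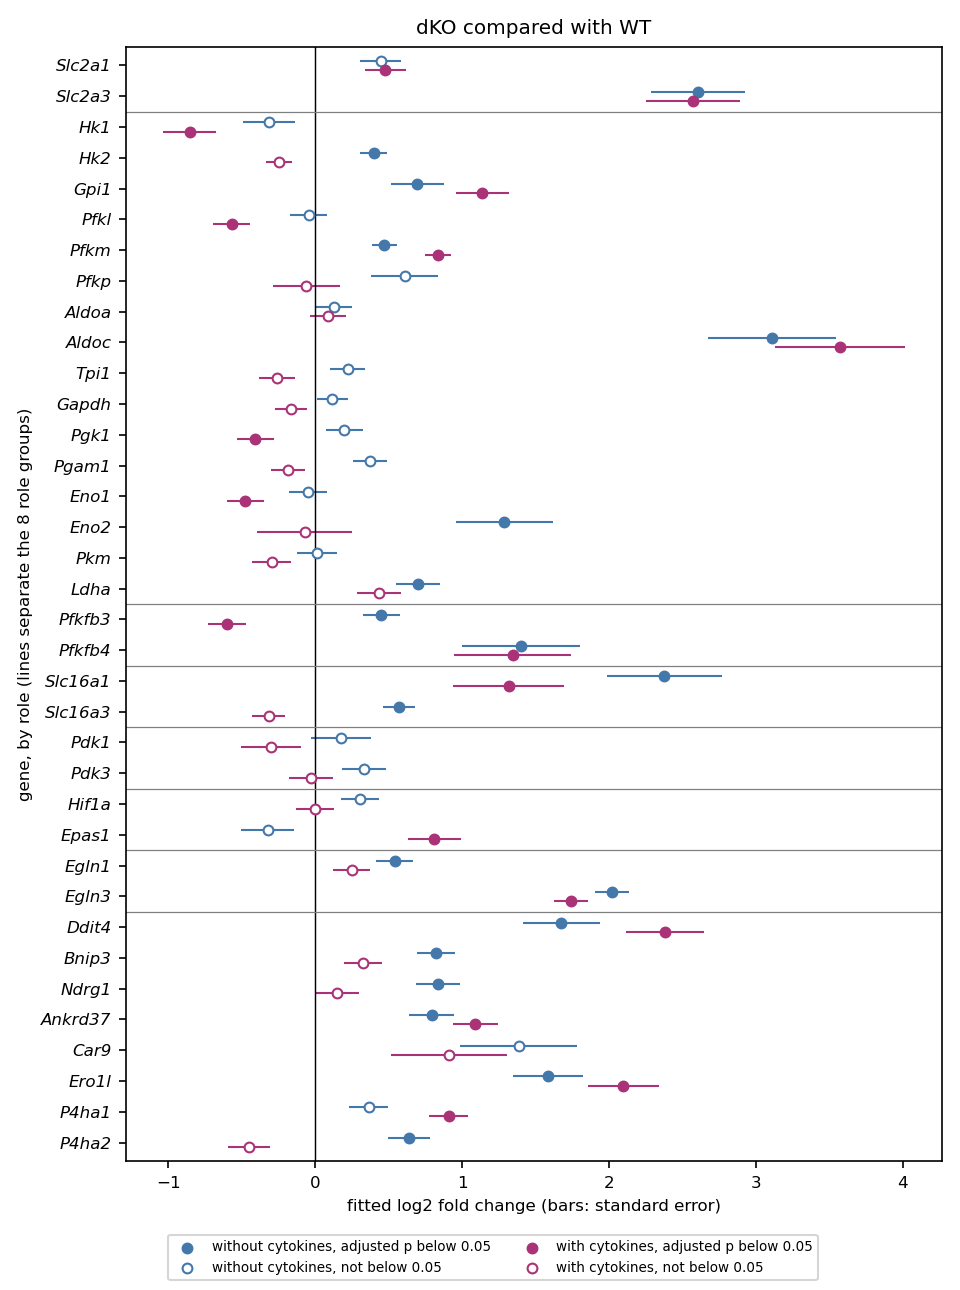
Fitted log2 fold change of each of the 36 genes in dKO compared with WT cells (x axis, bars are standard errors), without cytokines in blue and with cytokines in purple, with filled points past the threshold. Points sit right of 0 for 32 of 36 genes without cytokines and for 20 of 36 with cytokines, and the purple points of Hk1, Pfkl, Pgk1, Eno1 and Pfkfb3 are filled and left of 0.

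The next comparison asked how WT cells responded to IL1B and TNFA, and shares its untreated libraries with the comparison above. Of the 36 genes, 18 were higher and 3 lower with cytokines, against a background of 9.72% of all tested genes higher, 7.69% lower and 17.4% in either direction. The median log2 fold change was 0.58 over the 36 genes and -0.01 over all tested genes, and 34 of the 36 did not overlap, against 68.2% of all tested genes. Glucose and lactate transporters, hexokinases and enzymes of the lower pathway were among those that rose. No member for the Gpi1, phosphofructokinase or aldolase steps rose past the threshold. Pfkl and Pfkp missed it narrowly, and both passed as higher with DESeq2 and with the replicate number as a block.

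Slc2a1 rose from 269 and 307 to 547 and 552 CPM (1.91-fold, adjusted p = 0.00962), while Slc2a3 read 8.91 and 9.97 CPM with cytokines and did not pass (adjusted p = 0.168). Of the 16 enzymes, 9 rose and 1 fell. Hk2 rose from 59.5 and 61.7 to 123 and 114 CPM (1.96-fold, log2 fold change 0.97 ± 0.09, adjusted p = 0.00278). Hk1, the constitutive hexokinase, rose from 232 and 224 to 419.5 and 378 CPM (1.75-fold, adjusted p = 0.0286). These enzymes start the pathway. At its end, Ldha rose from 1179.6 and 1234 to 2263 and 2160.2 CPM (1.83-fold, adjusted p = 0.0135). The others that rose were Tpi1, Gapdh, Pgk1, Pgam1, Pkm and Eno2, by between 1.37-fold (Pgk1, adjusted p = 0.0499) and 3.12-fold (Eno2, adjusted p = 0.0242). Eno2 differed widely between the treated libraries, at 86.2 and 42.6 CPM. Pkm shares 15.3% of its exon bases with Gm49759, so its counts are uncertain. The enzyme that fell was Pfkm, from 52 and 52.2 to 31.6 and 34.6 CPM (1.57-fold lower, adjusted p = 0.00618). Its relatives Pfkl (540.0 and 603 CPM untreated, 774 and 761 CPM treated) and Pfkp (103 and 93.1 CPM untreated, 182 and 170.3 CPM treated) did not pass (adjusted p = 0.0642 and 0.0506).

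Pfkfb3 rose from 105 and 122 to 326 and 326 CPM (2.87-fold, log2 fold change 1.52 ± 0.13, adjusted p = 0.00235). Both lactate transporters rose, Slc16a3 from 178 and 209 to 469.8 and 491 CPM (2.49-fold, adjusted p = 0.00235) and Slc16a1 from 19.6 and 27.5 to 51.7 and 85.1 CPM (2.9-fold, adjusted p = 0.0427). The treated WT libraries held more Pfkfb3 and Slc16a3 than any other library of the study.

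The HIF alpha subunits moved apart in WT cells. Hif1a rose from 535 and 551 to 745 and 870.4 CPM (1.49-fold, adjusted p = 0.03). Epas1 fell from 498 and 437 to 271 and 211 CPM (1.94-fold lower, adjusted p = 0.0176). Per kilobase, the ratio of Hif1a to Epas1 was 1.02 and 1.19 in the untreated WT libraries and 2.61 and 3.92 in the treated ones. In dKO cells it was 1.75 and 1.65 untreated and 1.72 and 1.93 with cytokines.

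The collagen prolyl hydroxylases also moved in opposite directions. P4ha2 rose from 82.2 and 101 to 560.2 and 537 CPM, the largest cytokine response of the 36 genes (6-fold, log2 fold change 2.58 ± 0.15, adjusted p = 0.000959). P4ha1, which encodes the other common catalytic subunit, fell from 502 and 540.1 to 334 and 333 CPM (1.56-fold lower, adjusted p = 0.0234). Of the other HIF targets, Ero1l rose from 352 and 351 to 625 and 787 CPM and Ndrg1 from 177 and 213 to 322 and 339.5 CPM (adjusted p = 0.0327 and 0.0207). Ddit4 (105 and 114 CPM treated, adjusted p = 0.0613), Bnip3 (178 and 205 CPM), Ankrd37 (7.41 and 7.89 CPM) and Car9 (6.17 and 8.36 CPM) did not pass. Egln3 rose from 229.6 and 231 to 460.2 and 499.9 CPM (2.08-fold, adjusted p = 0.00367), and Egln1 read 178 and 199 CPM and did not pass (adjusted p = 0.0584).

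The count of 21 in WT cells became 5 without untreated WT library 1 or 2 (2.52% and 3.12% of all tested genes), 6 without treated WT library 1 (3.81%) and 7 without treated WT library 2 (6.04%). Hk2, Pfkfb3, Slc16a3, Egln3 and P4ha2 passed whichever library was left out. With the replicate number as a block the count was 30, against 37.9% of all tested genes. The block added Slc2a3, Pfkl, Pfkp, Pfkfb4, Pdk3, Egln1, Ddit4 and Bnip3 among the higher genes and Gpi1 among the lower ones, with adjusted p between 0.000455 (Ddit4) and 0.0488 (Gpi1). Of the 8 endothelial markers 2 were lower with cytokines. The endothelial marker sum was 5288 and 4986 CPM in the treated WT libraries, and the stellate and fibroblast sum was 10847 and 9962 CPM; their part in the response was not tested.

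**Figure D3:**
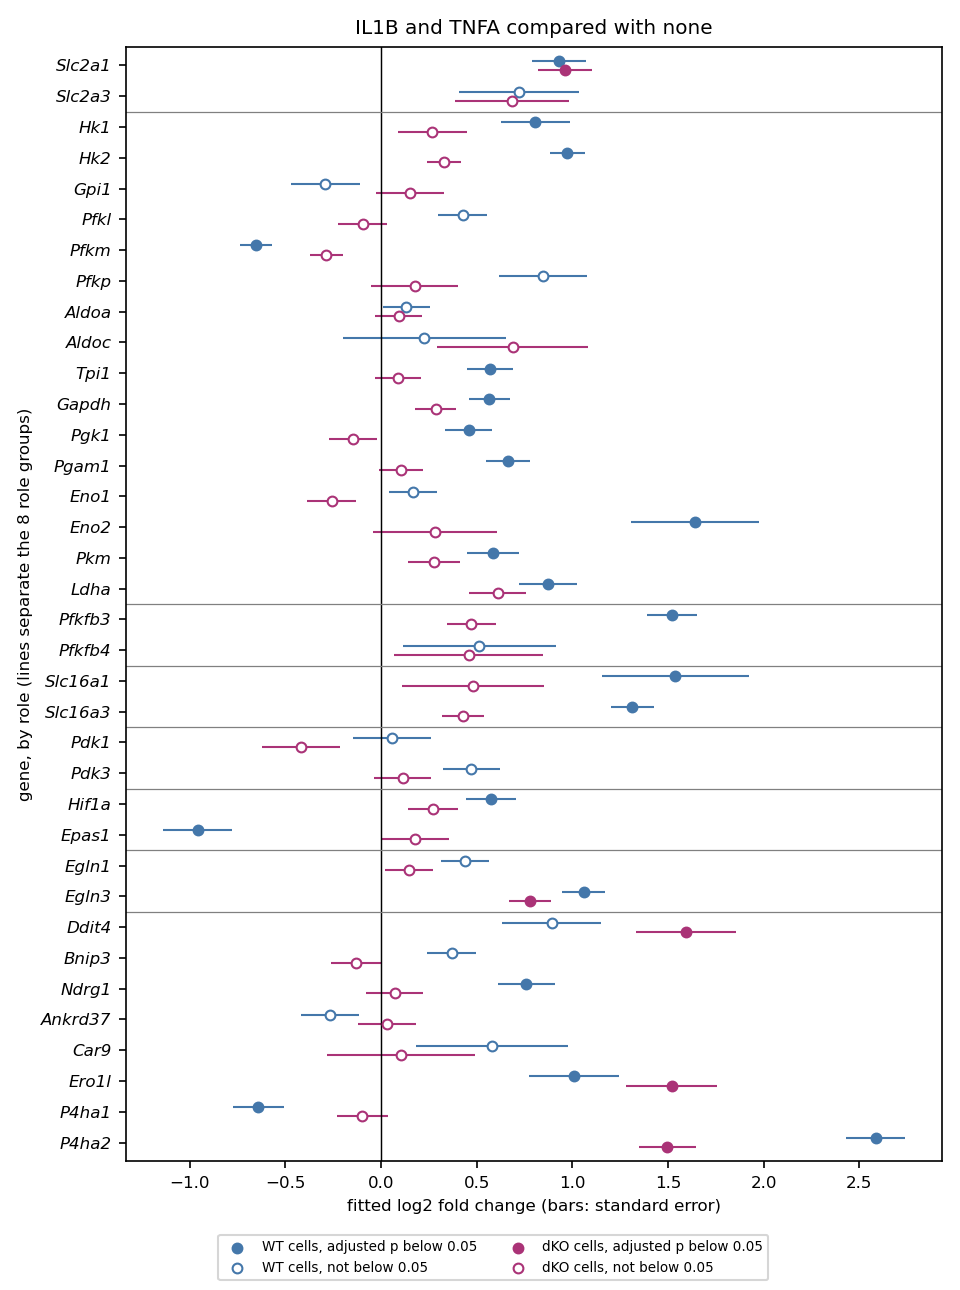
Fitted log2 fold change of each of the 36 genes with IL1B and TNFA compared with none (x axis, bars are standard errors), in WT cells in blue and dKO cells in purple, with filled points past the threshold. Points are filled for 21 genes in WT cells and for 5 in dKO cells. Among the latter, the purple point lies furthest right of the blue one for Ddit4 and Ero1l. For neither gene did this difference pass as an interaction in the edgeR test without a block (adjusted p = 0.564 and 0.652).

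In dKO cells the same cytokines raised 5 of the 36 genes and lowered none, against a background of 3.5% of all tested genes higher, 2.06% lower and 5.55% in either direction. With only the 4 dKO libraries in the fit none of the 36 passed, and 1 gene did over the whole table. The median log2 fold change was 0.22 over the 36 genes and -0.01 over all tested genes, and 18 of the 36 did not overlap, against 49.5% of all tested genes. Slc2a1 rose from 363 and 421 to 837 and 692 CPM (1.95-fold, adjusted p = 0.0208). The other 4 were Egln3 and 3 of the 8 genes listed as other HIF targets. Ero1l rose from 1239.5 and 871 to 3505 and 2542 CPM (2.87-fold, log2 fold change 1.52 ± 0.24, adjusted p = 0.0231). Ddit4 rose from 213 and 164 to 704 and 435 CPM (3.02-fold, log2 fold change 1.60 ± 0.26, adjusted p = 0.0255). The treated library 1 was the highest of all 8 for both genes, and the treated library 2 the second highest. P4ha2 rose from 140.2 and 145 to 359 and 445 CPM (2.82-fold, adjusted p = 0.00703), and its difference from treated WT cells did not pass (adjusted p = 0.0529, or 0.0303 with the replicate number as a block). Egln3 rose from 989 and 883 to 1633 and 1579.8 CPM (1.72-fold, adjusted p = 0.0192), the highest values of the study.

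None of the 16 glycolytic enzymes passed in dKO cells with edgeR's quasi-likelihood test. The edgeR log2 fold changes ran from -0.29 (Pfkm) to 0.69 (Aldoc), with a median of 0.16. At an unadjusted p below 0.05 there were 4 of the 16 enzymes and 3672 of the 15698 tested genes. With DESeq2 1 of the 16, Ldha, passed, against 12% of the genes for which it gave an adjusted p. Ldha came nearest with edgeR's test, at 2167 and 1759.9 CPM untreated and 3199 and 2788 CPM treated (adjusted p = 0.0707). Pfkfb3 read 167 and 143 CPM untreated and 201 and 229 CPM treated (adjusted p = 0.0863), and Slc16a3 284 and 289 CPM untreated and 372 and 399.6 CPM treated (adjusted p = 0.0787). Libraries with the same number within a genotype carry the same name in the labels, apart from the treatment, and deviated together. With that number as a block, 16 genes passed (14 higher and 2 lower, against 24% of all tested genes in either direction). The block added Slc2a3, Hk1, Hk2, Aldoc, Ldha, Pfkfb3, Pfkfb4, Slc16a1 and Slc16a3 among the higher genes and Pfkm and Pdk1 among the lower ones. For Ldha the blocked log2 fold change was 0.61 ± 0.11 (adjusted p = 0.00502) and for Aldoc 0.69 ± 0.11 (adjusted p = 0.00368). The unblocked count of 5 became 1 without untreated WT library 1 or 2, treated WT library 2, untreated dKO library 1 or treated dKO library 1, and 2 without treated WT library 1 or untreated dKO library 2. In these settings between 0.794% and 3.75% of all tested genes passed. P4ha2 passed in all of these.

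The last pairwise comparison set dKO against WT cells that had both received cytokines. Of the 36 genes, 13 were higher and 5 lower in dKO cells, against a background of 18.6% of all tested genes higher, 15.4% lower and 34% in either direction. The median log2 fold change was 0.12 over the 36 genes and 0.01 over all tested genes, and 29 did not overlap, against 73.5% of all tested genes. This comparison shares no library with that of untreated dKO and WT cells. The comparisons are not independent, because they come from the same fit and same-numbered libraries of a genotype deviated together. Of the 36 genes, 10 were higher in dKO cells in both: Slc2a3, Gpi1, Pfkm, Aldoc, Pfkfb4, Slc16a1, Egln3, Ddit4, Ankrd37 and Ero1l. Over all tested genes, 10.5% were higher in both.

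Of the HIF targets and oxygen sensors, Ddit4, Ero1l and Egln3 stood furthest above WT. Ddit4 read 105 and 114 CPM in treated WT and 704 and 435 CPM in treated dKO (5.21-fold, log2 fold change 2.38 ± 0.27, adjusted p = 0.00305). Ero1l read 625 and 787 CPM in WT against 3505 and 2542 CPM in dKO (4.28-fold, log2 fold change 2.10 ± 0.24, adjusted p = 0.00317). Egln3 read 460.2 and 499.9 CPM in WT against 1633 and 1579.8 CPM in dKO (3.35-fold, adjusted p = 0.000946). Both treated dKO libraries exceeded both treated WT libraries for these 3 genes. P4ha1 was higher in dKO cells, at 681 and 573 CPM against 334 and 333 CPM in WT (adjusted p = 0.00547), and Epas1 likewise, at 481 and 365 CPM against 271 and 211 CPM (adjusted p = 0.0172). Both had fallen with cytokines in WT cells. Hif1a read 745 and 870.4 CPM in treated WT and 874 and 744 CPM in treated dKO, which overlapped (adjusted p = 0.992).

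Calls among the transporters and enzymes went in both directions. Slc2a3 (5.95-fold, adjusted p = 0.00373), Slc2a1 (1.39-fold, adjusted p = 0.0411) and Slc16a1 (2.49-fold, adjusted p = 0.0406) were higher in dKO cells. Slc16a1 did not pass with the replicate number as a block (adjusted p = 0.0654). Of the 16 enzymes, 3 were higher and 4 lower, against 18.6% and 15.4% of all tested genes. Aldoc read 4.28 and 5.3 CPM in treated WT and 74.6 and 39.6 CPM in treated dKO (11.9-fold, adjusted p = 0.00401). Gpi1 read 451 and 435 CPM in WT and 1134 and 817 CPM in dKO, and Pfkm 31.6 and 34.6 CPM in WT and 59.3 and 59 CPM in dKO (adjusted p = 0.00673 and 0.00232). Pfkfb4 was higher too, at 19.4 and 11 CPM in dKO against 6.53 and 5.42 CPM in WT (adjusted p = 0.0418). The 4 lower enzymes were Hk1, Pfkl, Pgk1 and Eno1. Hk1 read 419.5 and 378 CPM in treated WT and 194 and 248 CPM in treated dKO (1.81-fold lower, adjusted p = 0.0149), and Pfkl, the liver-type phosphofructokinase, 774 and 761 CPM in WT and 469 and 567 CPM in dKO (adjusted p = 0.0175). Pgk1, which makes ATP in the lower part of the pathway, read 512 and 554 CPM in WT and 373 and 431 CPM in dKO (adjusted p = 0.0454), and Eno1, the main enolase, 869 and 854 CPM in WT and 580.0 and 661 CPM in dKO (adjusted p = 0.0311). Pfkfb3 was lower too, at 201 and 229 CPM in treated dKO against 326 and 326 CPM in treated WT (1.52-fold lower, adjusted p = 0.0151), whereas it had been higher in untreated dKO than in untreated WT cells. The count of 18 became 10 without treated WT library 1 (9.84% of all tested genes), 9 without treated WT library 2 (14%) and 10 without treated dKO library 1 (14.4%), and none of the 5 lower genes passed in these 3 settings. Without both dKO libraries numbered 2, 22 genes passed, against 41% of all tested genes. The endothelial marker sum was 1469.7 and 2352 CPM in treated dKO and the stellate and fibroblast sum 18956 and 15015 CPM, and their part was not tested.

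**Figure D4:**
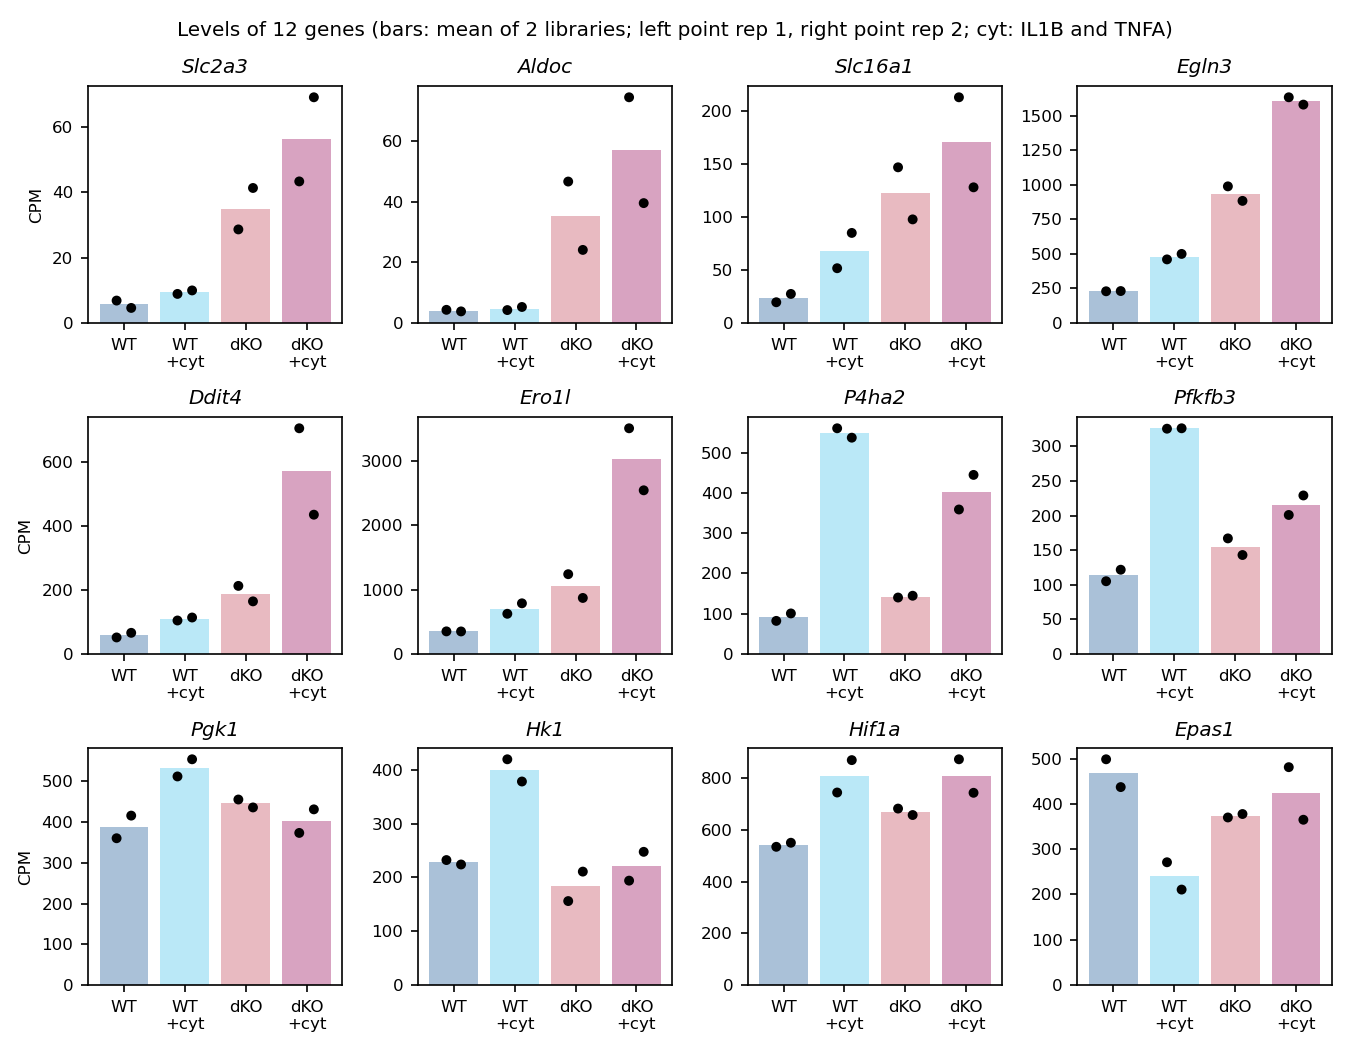
CPM of 12 of the 36 genes in the 4 groups (bars are the mean of 2 libraries, points the libraries, left replicate 1 and right replicate 2, each y axis starting at 0). Egln3, Ddit4 and Ero1l step up from WT to dKO cells with cytokines, P4ha2, Pfkfb3 and Hk1 are highest in WT cells with cytokines, and Epas1 is lowest there.

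Whether the cytokine response itself differed between the genotypes was tested as an interaction. No gene passed with edgeR's quasi-likelihood test, 0 of the 36 and 0% of all tested genes. At an unadjusted p below 0.05 there were 14 of the 36 genes and 10.7% of all tested genes. DESeq2 called 5 of the 36 (2.77% of the genes for which it gave an adjusted p): Hk2, Pfkfb3, Slc16a3 and P4ha2 with a smaller rise in dKO cells, and Epas1 with a higher response in dKO cells. With the replicate block within genotypes, 14 passed, against 6.03% of all tested genes, on 2 residual degrees of freedom. Below 0 were Hk1, Hk2, Pfkp, Pgk1, Pgam1, Eno2, Pfkfb3, Slc16a1, Slc16a3, Ndrg1 and P4ha2, and above 0 were Epas1, Ddit4 and P4ha1. The blocked interaction was -1.05 ± 0.16 for Pfkfb3 (log2, adjusted p = 0.0125), -0.89 ± 0.13 for Slc16a3 (adjusted p = 0.00972) and 1.13 ± 0.17 for Epas1 (adjusted p = 0.0109). Without the block the same 3 genes had -1.05 ± 0.18, -0.89 ± 0.16 and 1.14 ± 0.25, with adjusted p = 0.187, 0.187 and 0.225. Whether a difference in cytokine response passed thus depended on the block and on the tool.

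Set side by side, the glycolytic enzymes and the 8 other HIF targets differed in pattern, given here as a description with no test. The median log2 difference between dKO and WT cells was 0.30 over the 16 enzymes and 0.83 over the 8 targets without cytokines, and -0.17 and 0.91 with cytokines. Over the 28 further HIF targets described below it was smaller than over the 8, at 0.47 without cytokines and 0.36 with cytokines. With cytokines 16 of those 28 were above 0 and 12 below. The median cytokine response was 0.57 over the enzymes and 0.67 over the targets in WT cells. In dKO cells it was 0.16 and 0.09, and the targets split there between Ero1l, Ddit4 and P4ha2 and 5 genes that did not pass. Summed over the 16 enzymes, levels were 8712 and 9474 CPM in untreated WT, 12894 and 12559 CPM in treated WT, 11045 and 10424 CPM in untreated dKO and 12613 and 12468 CPM in treated dKO. The treated libraries of both genotypes thus lay close together in this sum, above the untreated ones. Ldha alone supplied 2263 and 2160.2 CPM of it in treated WT and 3199 and 2788 CPM in treated dKO. Between treated genotypes, 11 of the 16 enzymes had a log2 fold change below 0 and 5 above. Summed over the 8 HIF targets, levels were 1330.1 and 1430.0 CPM in untreated WT, 2137 and 2332 CPM in treated WT, 3021 and 2372 CPM in untreated dKO and 5855 and 4659.9 CPM in treated dKO. The treated dKO libraries lay far above the rest, and Ero1l alone supplied 3505 and 2542 CPM of their sums.

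Several steps are served by more than one gene, and the mix shifted. Egln3 made up 68.3% and 70% of the Egln1 and Egln3 level per kilobase in untreated WT, 77.7% and 77.2% in treated WT, 85.6% and 86.8% in untreated dKO and 90.8% and 90.5% in treated dKO. P4ha2 made up 9.74% and 11% of the P4ha1 and P4ha2 level in untreated WT, 52.5% and 51.5% in treated WT, 11.3% and 13.4% in untreated dKO and 25.8% and 33.9% in treated dKO. The treated WT libraries held the highest P4ha2 shares, and the shares themselves were not tested. Slc16a1 made up 11.7% and 13.7% of the lactate transporters in untreated WT and 38.3% and 28.9% in untreated dKO. Hk2 made up 26.8% and 28.2% of the hexokinases in untreated WT and 42.5% and 35% in untreated dKO. Pfkm made up 14.9% and 13.9% of phosphofructokinase in untreated WT, 6.81% and 7.56% in treated WT and 19.4% and 18% in untreated dKO. Despite its rise, Aldoc stayed at or below 3.59% of the aldolase level, and Slc2a3 at or below 4.61% of the 2 glucose transporters.

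**Figure D5:**
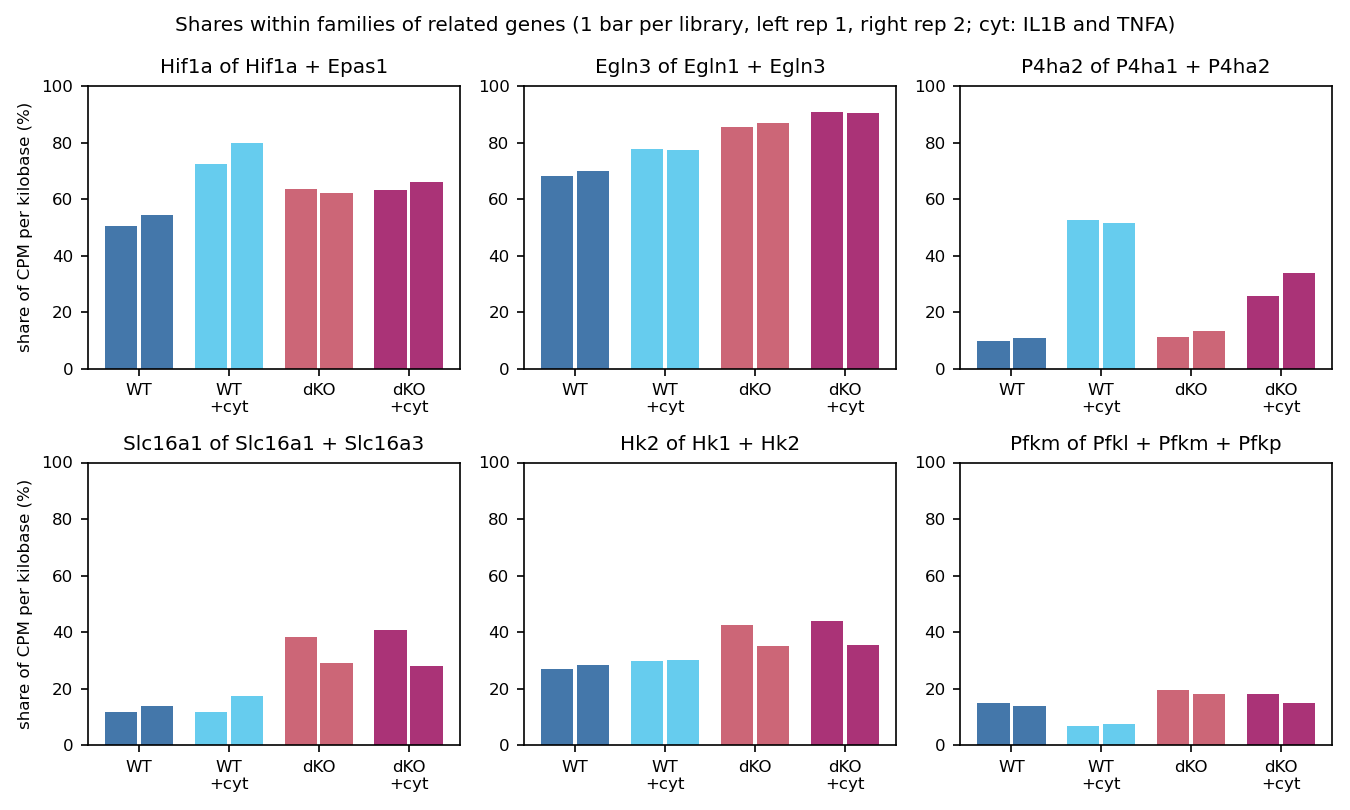
Share of 1 gene in the level per kilobase of its family (y axis, percent), 1 bar per library, left replicate 1 and right replicate 2 in each of the 4 groups. Egln3 runs from 68.3% to 90.8%, P4ha2 from 9.74% to 52.5% with its peak in WT cells with cytokines, and Slc16a1 reaches 40.8% in dKO cells.

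The genes were also set beside other genes of the same pathways. The background for each list is the share of all tested genes. Between untreated genotypes 13.4% were higher and 9.66% lower in dKO cells, and between treated genotypes 18.6% and 15.4%. With cytokines 9.72% rose and 7.69% fell in WT cells, and 3.5% rose and 2.06% fell in dKO cells. Of 28 further HIF targets, all tested, 7 were higher and 1 lower in untreated dKO than in untreated WT cells, and 9 were higher and 3 lower with cytokines. Vegfa, the main angiogenic growth factor, read 296 and 256 CPM in untreated WT and 2735 and 1548 CPM in untreated dKO (7.75-fold, adjusted p = 0.00485). Car12, a carbonic anhydrase like Car9, read 5.98 and 5.73 CPM in WT against 166 and 50.2 CPM in dKO (18.4-fold, adjusted p = 0.0116), and Lox, which cross-links collagen, 172 and 202 CPM in WT against 1071 and 667 CPM in dKO (4.65-fold, adjusted p = 0.00722). With cytokines, Lox, Car12 and Bhlhe41 were 13.6-fold, 10.7-fold and 7.52-fold higher in dKO than in WT cells. Cytokines raised 8 of the 28 and lowered 2 in WT cells, among them Stc1 (5.8-fold higher) and Lox (2.27-fold lower). In dKO cells 1 of the 28 rose, the glycogen-branching enzyme Gbe1, from 82.3 and 63.4 to 208 and 127 CPM (adjusted p = 0.0433).

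Of 28 further genes of glycolysis, pyruvate and glucose transport, 22 were tested. In untreated cells 2 were higher and none lower in dKO, Eno3 (2.25-fold) and Pdk4 (2.19-fold). In WT cells cytokines raised 1 and lowered 5. The gene that rose was the transporter Slc2a6, from 0.111 and 0.472 to 41.7 and 26.2 CPM (log2 fold change 6.81 ± 0.57 from a level near 0, adjusted p = 0.00236), and among those that fell were Ldhb (3.06-fold lower) and Slc2a8 (2.73-fold lower). In dKO cells Slc2a6 rose from 0.223 and 0.374 to 9.09 and 7.91 CPM (adjusted p = 0.0122), and it was 3.99-fold lower in treated dKO than in treated WT cells (adjusted p = 0.0158). In dKO cells Pdk4 fell with cytokines from 141 and 139.8 to 28.2 and 48.3 CPM (adjusted p = 0.0153). With cytokines, 4 of the 22 were higher and 1 lower in dKO than in WT cells, among them Eno3 (2.7-fold higher) and Slc2a8 (2.6-fold higher).

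Of 10 other regulators of HIF, 2 were higher and 1 lower in untreated dKO cells. Arnt2, a partner that pairs with HIF alpha, read 2.22 and 3.07 CPM in WT against 18.5 and 12.9 CPM in dKO (5.94-fold, adjusted p = 0.00408). Vhl, which marks HIF alpha for destruction, rose from 33.1 and 33.6 to 49.9 and 48.1 CPM (adjusted p = 0.0301), and the chaperone Hsp90ab1 fell from 1862 and 2018 to 1091 and 1436 CPM (adjusted p = 0.0408). In WT cells cytokines raised Vhl to 42.9 and 55.9 CPM (adjusted p = 0.0333), and in dKO cells none of the 10 passed with edgeR. At an unadjusted p below 0.05 in dKO cells there were 3 of the 10, against 3672 of the 15698 tested genes. Hsp90ab1, the most abundant of the 10, read 1695 and 1916 CPM in treated dKO (adjusted p = 0.128). With cytokines Arnt2 was 4.67-fold higher in dKO than in WT cells, and Hsp90aa1 and the HIF asparaginyl hydroxylase Hif1an were 1.61-fold and 1.44-fold lower.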

How the data were processed

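The authors deposited raw counts, whole numbers for each Ensembl gene in 8 libraries. FastQC 0.11.5, STAR 2.7.6a and the build GRCm38 are listed, per the submitters' processing notes, with no role for each. The sources used here give no counter, annotation or strand setting, and per the labels' protocols either an unstranded or a stranded kit was used, so overlapping genes may share counts. Ankrd37 and Pkm are uncertain for that reason, and so may be Car9 (9.29% of exon bases shared), Hif1a (5.6%) and Pfkp (5.58%). Genes with 95% identity over 200 bases could also share reads: the counts in such rows equal 44% of those of Pfkp (the row of Pitrm1), 6.98% of those of Pkm and 1.75% of those of Gapdh (78 genes).

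In R 4.3.3, edgeR 4.0.16 was run with TMM scaling, a low-count filter by group, and a quasi-likelihood fit, robust and with a coefficient for every group, on all 8 libraries (4 residual degrees of freedom, common biological coefficient of variation 24.3%). All 5 contrasts were tested two-sided. Benjamini-Hochberg adjustment covered the 15698 tested genes within a contrast, and adjusted p under 0.05 counted as passing. CPM use TMM-scaled library sizes, and levels per kilobase use GENCODE M21 exon lengths. Alternatives were DESeq2 1.42.0, RLE scaling, no filter, only the 4 libraries compared, a replicate block, and libraries left out.

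Descriptions in the labels give same-numbered libraries of a genotype the same name apart from the treatment, and the correlation of their deviations was 0.506 in WT and 0.743 in dKO cells, against 0.0522 to 0.165 between genotypes. They were taken as pairs within a genotype only.

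The 36 genes, the further lists, the tests and the alternatives were chosen with earlier results of these data known. The text names Erg, Fli1, the 36 genes and, from each further list and contrast, up to 3 genes with the largest change among those past the threshold whose mean reached 1 CPM in either group compared. Where none passed, it names the most abundant gene. A gene that this rule names is not reported here.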

Additional observations from a re-analysis of the deposited data

How the results depend on the processing

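All calls among the 36 genes kept their direction in all settings run. Between untreated genotypes, 15 to 19 of the 19 calls remained under DESeq2, RLE scaling, no filter, only the 4 libraries compared, the replicate block and without both dKO libraries numbered 2. For cytokines in WT cells 18 to 21 of 21 remained, and between treated genotypes 12 to 18 of 18. For cytokines in dKO cells, the count of 5 became 8 with DESeq2, 0 with only the 4 libraries compared and 16 with the replicate block. Over all genes with an adjusted p, 12%, 0.00675% and 24% passed in these settings. For the interaction, the count of 0 became 5 with DESeq2, 2 with no filter (Pfkfb3 and P4ha2) and 14 with the replicate block. Over all genes with an adjusted p, 2.77%, 0.277% and 6.03% passed in these settings. Leaving out 1 library at a time gave 2 to 20 genes between untreated genotypes, 5 to 24 for cytokines in WT cells, 1 to 5 in dKO cells, 9 to 20 between treated genotypes and 0 for the interaction, with 1 library left in the group concerned, assumed to vary like the others. Depth limits most the scarcest of the 36 genes, Pfkfb4, Aldoc, Car9, Ankrd37 and Slc2a3, which read under 10 CPM in all 4 WT libraries.

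Over all tested genes, the counts of 3617 (untreated genotypes), 2733 (cytokines in WT), 872 (cytokines in dKO) and 0 (interaction) moved by over 1.5 times in several settings. Leaving out 1 library at a time gave 527 to 3783, 413 to 2749, 130 to 731 and 0 to 41 genes, and 1621 to 5523 between treated genotypes (5343 with all libraries). With only the 4 libraries compared they were 2266, 4585 and 1 for the first 3. With the replicate block they were 5943 in WT, 3769 in dKO and 947 for the interaction. DESeq2 gave 1738 in dKO and 372 for the interaction, and no filter gave 75 for the interaction. Without both dKO libraries numbered 2 they were 5602, 4417, 1339 and 193. The pairing changed no other call count of the 36 genes by over 1.5 times: with the block it was 20 between untreated genotypes, 30 for cytokines in WT cells and 20 between treated genotypes. Between genotypes, where only the number is shared, it added Car9 without cytokines and, with cytokines, added Ldha, Slc16a3 and P4ha2 and lost Slc16a1.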

Other observations

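The pentose phosphate pathway branches from glycolysis and supplies NADPH. Of 7 genes tested, 2 were lower and none higher in untreated dKO than in untreated WT cells. Over all tested genes, 9.66% were lower and 13.4% higher. Taldo1 read 229 and 274 CPM in WT and 118 and 143 CPM in dKO (adjusted p = 0.0424), and Rpia 25.9 and 31.2 CPM in WT and 13.8 and 18.1 CPM in dKO (adjusted p = 0.0171). Cytokines changed none of the 7 in WT cells past the threshold by edgeR's quasi-likelihood test, nor any at an unadjusted p below 0.05 (Taldo1, the most abundant, 173 and 168 CPM treated), and raised 2 in dKO cells. Over all 15698 tested genes, 3.5% rose in dKO cells with cytokines, and 5249 had an unadjusted p below 0.05 in WT cells. Pgd rose from 121 and 142 to 337 and 214 CPM (adjusted p = 0.0427) and Tkt from 185 and 189 to 367 and 274 CPM (adjusted p = 0.0339). Tkt was also 1.43-fold higher in treated dKO than in treated WT cells (adjusted p = 0.0343).

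Of 10 cell cycle genes, 8 were lower in untreated dKO than in untreated WT cells and 7 with cytokines, and none higher. Over all tested genes, 9.66% were lower without cytokines and 15.4% with cytokines. Mki67 read 14.1 and 14 CPM in untreated WT and 2.64 and 5.24 CPM in untreated dKO (3.55-fold lower, adjusted p = 0.0138), and Mcm5 12.6 and 15.8 CPM in WT against 2.95 and 4.07 CPM in dKO (4.04-fold lower, adjusted p = 0.00351). In WT cells cytokines raised Mki67 to 34.1 and 34.4 CPM and lowered Cdk1 from 24.2 and 26.6 to 14.2 and 17 CPM (adjusted p = 0.037 and 0.0162). In dKO cells none of the 10 passed by edgeR's quasi-likelihood test. At an unadjusted p below 0.05 there was 1 of the 10, against 3672 of the 15698 tested genes. Pcna, the most abundant of the 10, read 28.7 and 33.6 CPM untreated and 33 and 34.2 CPM treated in dKO cells.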
